A study of Mus musculus with 8 samples.

Results

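The emergence of blood from the arterial wall was followed through 3 cell populations of the mouse embryo, placed in the order GFP- endothelial cells, GFP+ endothelial cells, GFP+ hematopoietic cluster cells. These are 6 of the 8 arrays of the study, 2 arrays for each population, and the other 2 arrays, of GFP- hematopoietic cluster cells, lie off this order and were used only as a point of reference. All cells came from 100 embryos of stage E10.5, pooled, bred from C57BL/6 x 129S1/SVImJ F1 females and Tg(Ly6a-GFP) males, so every group carries the transgene in which Ly6a sequences drive green fluorescent protein (GFP). From the aorta-gonad-mesonephros (AGM) region and the umbilical and vitelline arteries, 300000 GFP- and 70000 GFP+ endothelial cells were sorted, as well as 30000 GFP+ and, as reference, 130000 GFP- cluster cells. All were CD31+, VEC+ and ESAM+, and Kit divided the Kit- endothelial from the Kit+ cluster cells. Step 1 is the GFP+ minus the GFP- endothelial level of a gene, and step 2 is the GFP+ cluster minus the GFP+ endothelial level, both as log2 differences. Among 19117 genes measured above background in at least 1 of the 3 groups, those with a step of at least 1 log2 (2-fold) at each stage were sorted into 4 classes: 123 genes were stepwise up, 11 stepwise down, 137 had a peak in the middle group and 536 a trough there. The order is the one in which the populations are placed, since all were sorted at the same age.

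In the embryo blood stem cells first form from hemogenic endothelium, a subset of arterial endothelial cells that turn into round cells and gather in clusters on the vessel wall. The change requires the transcription factor Runx1, and its target Gfi1, a transcriptional repressor, shuts down endothelial genes as cells leave the wall. Notch signalling and shear stress set the arterial identity of the vessel, and inflammatory signals such as interferons act on the cells as blood emerges. Ly6a encodes the stem cell antigen Sca-1, and its transgene marks cells that include the first stem cells.

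The 2 arrays of a group were made from 2 fractions of the same RNA, 50 ng labelled each, so the spread between them is technical and no p-value here measures variation between embryos, pools or sorts. Replicate 1 of each group lay on one slide and replicate 2 on another. The share of probes detected well above background ranged over the arrays from 55.5% to 64.5%, no spot was saturated, and with 2 arrays a group the number of arrays limits the precision. Levels are log2 signals relative to the array's 75th percentile, so 0 is a fairly bright gene, and a level of 1 gene is not set against that of another. In bulk RNA, more cells of a kind and more RNA per cell cannot be told apart. The first GFP+ endothelial array reached lowest at the dim end, with a lowest signal of -8.52 against -7.38 on the second. The lowest signals were -7.83 and -7.6 in GFP- endothelial, -6.98 and -7.07 in GFP+ cluster and -7.77 and -7.3 in GFP- cluster cells. Both steps share the 2 GFP+ endothelial arrays, so an error in them pushes the steps of a gene in opposite directions, toward the peak or the trough.

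The gates acted on CD31, VEC, ESAM and Kit and on GFP driven by Ly6a sequences, so the sort markers are no finding. Ly6a itself was not gated. Ly6a at step 1 and Kit at step 2 went with the labels. Ly6a differed by 4.07 ± 0.172 (log2 step ± standard error of the limma fit, n = 2 against 2 arrays) at step 1, and Kit by -0.01 ± 0.0501 at step 1 and by 1.55 ± 0.0501 at step 2. Kit was the only one of the 5 sort markers to rise at step 2, and the other 4 fell, Ly6a included. Cdh5, which encodes VE-cadherin, had mean levels of 4.37, 4.12 and 3.7 in the 3 groups in order, and Pecam1, which encodes CD31, of 1.49, 1.88 and 0.92. Both were well above background in all 3 populations, cluster cells included.

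The 3 marker genes of the order each took a different course. Gfi1 (probe at chromosome 5, 108145719 to 108145778, mm9) had levels of -2.62 and -2.48 on the 2 GFP- endothelial arrays, 0.44 and 0.41 on the GFP+ endothelial arrays and 2.67 and 2.55 on the GFP+ cluster arrays. No 2 groups overlapped, and the steps of 2.98 ± 0.0697 and 2.18 ± 0.0697 placed it among the stepwise up genes. Tmem100 (chromosome 11, 89897263 to 89897322), which encodes a membrane protein induced by bone morphogenetic protein signalling in arterial endothelium, read -2.15 and -2.15, then 0.47 and 0.41, then -1.66 and -1.71. Its steps of 2.6 ± 0.0471 and -2.13 ± 0.0471 made it a peak gene. Runx1 (chromosome 16, 92605785 to 92605844) read -3.42 and -3.64 in GFP- endothelial cells, -2.64 on both GFP+ endothelial arrays and 0.74 and 0.6 in GFP+ cluster cells. It rose at step 1 by 0.88 ± 0.0891 (limma, adjusted p = 0.000942) and at step 2 by 3.31 ± 0.0891 (adjusted p = 1.39e-05), and with a first step under 1 log2 it belongs to no class.

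**Figure D1:**
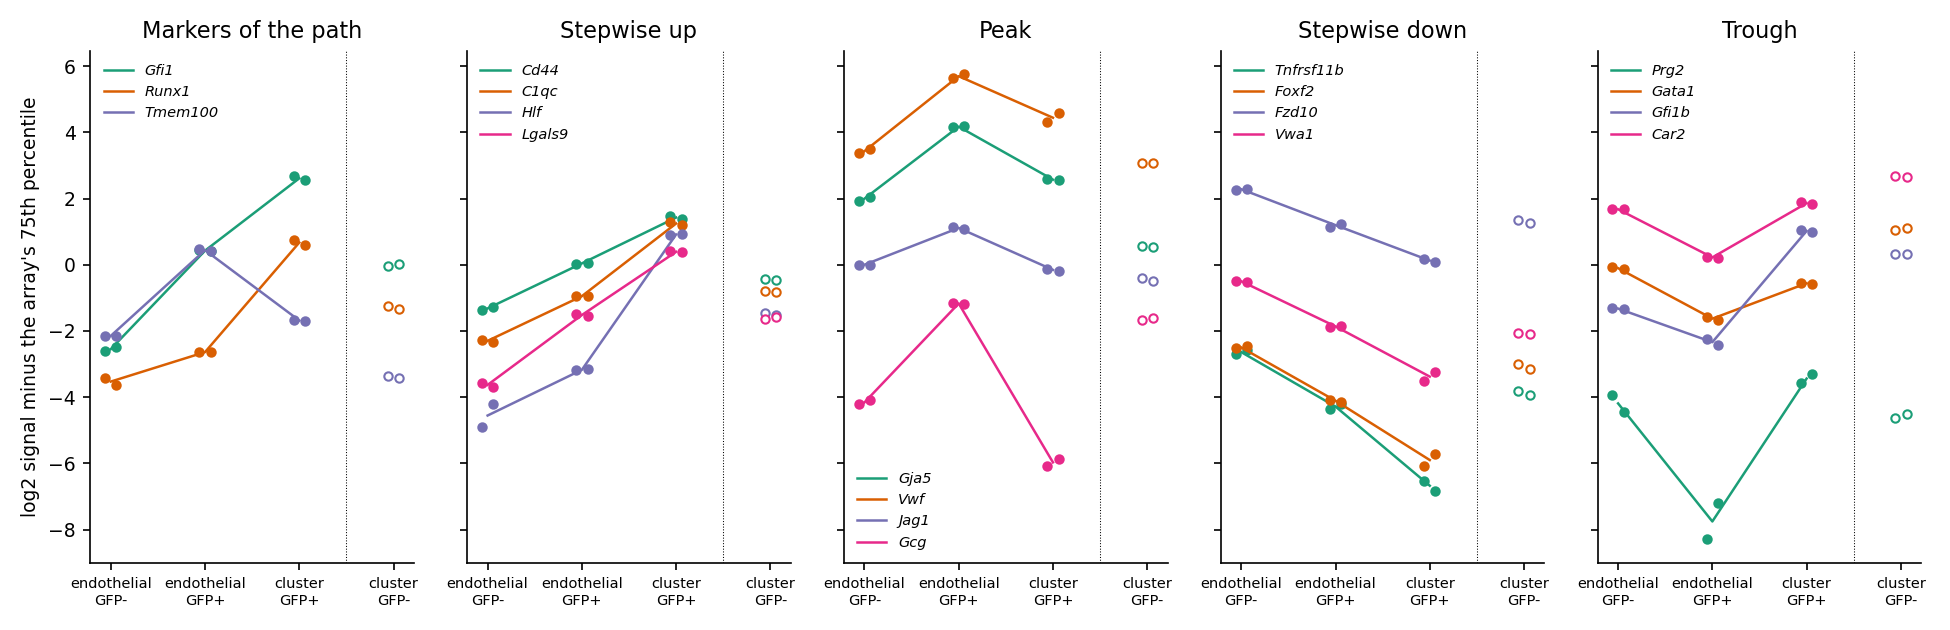
Level of named genes on each array (log2 signal minus the array's 75th percentile) in GFP- endothelial, GFP+ endothelial and GFP+ cluster cells, with GFP- cluster cells as open points right of the dotted line; points are single arrays and lines join the means of the ordered groups. Gfi1 lies near 0.4 in GFP+ endothelial cells and above 2.5 in GFP+ cluster cells, whereas Tmem100 returns to about -1.7.

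Over all genes, limma called 10002 (52.3%) at step 1, 3575 (18.7%) higher and 6427 (33.6%) lower, and 9699 (50.7%) at step 2, 4933 (25.8%) higher and 4766 (24.9%) lower, at a Benjamini-Hochberg adjusted p under 0.05. Because the spread is that of divided RNA, small differences pass easily, and the 1 log2 limit is the stricter one: 526 genes (2.75%) were at least 1 log2 higher and 924 (4.83%) lower at step 1, and 1422 (7.44%) higher and 480 (2.51%) lower at step 2. The median step over all genes was -0.12 at step 1 and 0.02 at step 2. Quantile normalization moved these medians to -0.02 and -0.02 and the share of step 1 calls that were higher from 35.7% to 50.8%; normexp background correction moved the share higher at step 2 from 50.9% to 40.4%. The direction of small differences at either step therefore depends on the scaling.

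**Figure D2:**
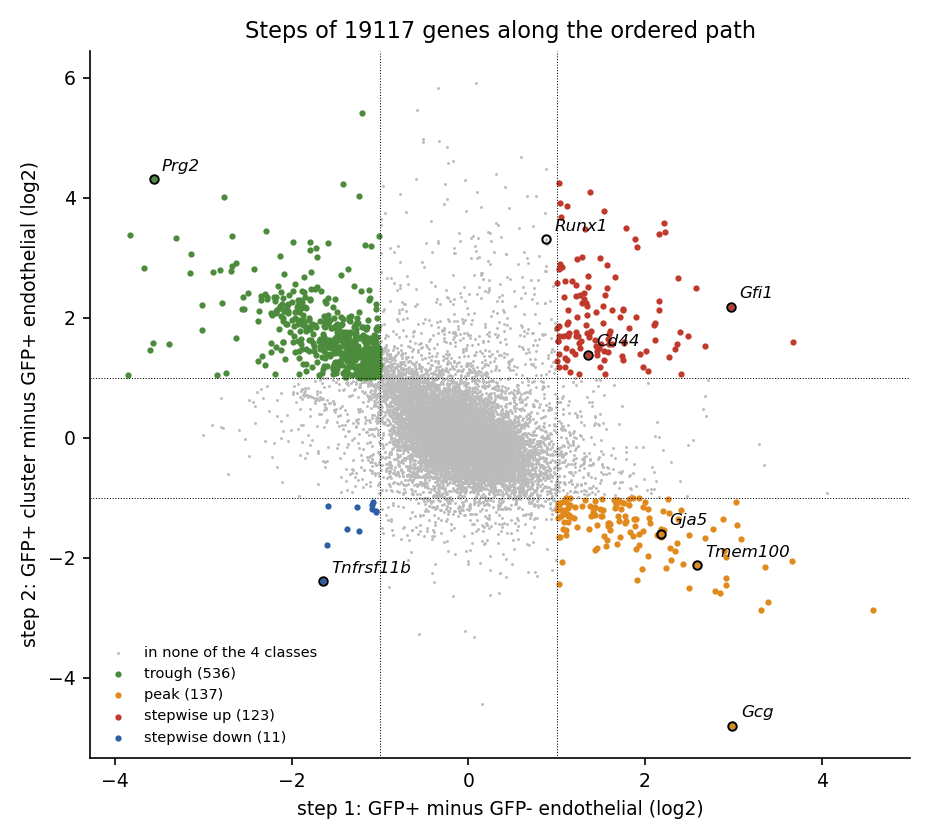
Step 1 (GFP+ minus GFP- endothelial cells, log2) against step 2 (GFP+ cluster minus GFP+ endothelial cells, log2) for 19117 genes; coloured points are members of the 4 classes and dotted lines mark a step of 1 log2. The trough class holds 536 genes and the stepwise down class 11.

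The 4 classes are 0.643% (stepwise up), 0.0575% (stepwise down), 0.717% (peak) and 2.8% (trough) of the genes tested. Since the steps chose the members, the values below are a description and carry no p-value. By limma both steps were called in 116 of 123 stepwise up, 9 of 11 stepwise down, 110 of 137 peak and 466 of 536 trough genes. Over all 19117 genes both were called in 6055. Members were chosen for large steps on the same arrays, so their high call rates are no support for the classes. Detection differs between the classes. Well above background on every array of all 3 groups were 69 stepwise up, 3 stepwise down, 68 peak and 111 trough genes. A group where a gene was not well above background has only a bound, the mean of the higher of the lowest well-measured signal and the gene's own on each array. With such bounds in place of the dim values, 91 stepwise up, 4 stepwise down, 91 peak and 334 trough members kept their class. The rule alone, before the filter on dim genes, took in 130, 11, 285 and 2509 genes; 1973 of the trough genes and 148 of the peak genes it took did not reach both arrays of any group well above background.

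The stepwise up class held 20 of 37 measured macrophage and myeloid genes, 10 of 44 genes shared by blood cells and 4 of 46 regulators of hematopoietic emergence, against 0.643% of all genes, and no arterial, endothelial or matrix gene of the lists. The lists were chosen with earlier results of these data known, so these shares are a description and no independent support. Step 1 ran from 1 to 3.68 over the 123 members (median 1.39) and step 2 from 1.06 to 4.24 (median 1.79). In 121 of them the arrays of the 3 groups followed each other without overlap, which the choice of members by steps on the same arrays favours.

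Besides Gfi1, the regulators were Hlf, Ikzf2 and Cebpa. Hlf (chromosome 11, 90200696 to 90200755), a transcription factor of hematopoietic stem cells, read -4.9 and -4.21 in GFP- endothelial cells, -3.19 and -3.16 in GFP+ endothelial cells and 0.89 and 0.94 in GFP+ cluster cells. The larger difference lay at step 2, with steps of 1.38 ± 0.207 and 4.09 ± 0.207. Ikzf2, which encodes the zinc finger protein Helios, read -4.44 and -4.55, then -2.88 and -2.97, then 0.03 and -0.13; another probe of the gene had steps of 0.51 and 3.29, under the limit at step 1. Cebpa, a transcription factor of the myeloid lineage, was not well above background in GFP- endothelial cells and at least 1.24-fold higher in GFP+ endothelial cells; GFP+ cluster cells exceeded these 3.65-fold.

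Of the regulators left, Gfi1b and Gata1 were trough genes and the rest lay outside the 4 classes. Of all 46, 21 rose and 11 fell at step 1 and 25 rose and 12 fell at step 2, with medians of 0.17 and 0.46. Over all genes 18.7% were higher and 33.6% lower at step 1 and 25.8% and 24.9% at step 2, so the share of regulators that fell at step 2 was near that of all genes. Runx1 was one of 3 regulators that stopped just short of the limit at step 1 and had a step above 3 at step 2: Myb, needed for definitive blood formation, rose by 0.89 ± 0.0615 (limma, adjusted p = 0.000342) and then by 4.49 (adjusted p = 3.84e-06), and Adgrg1, an adhesion receptor gene of stem cells, by 0.89 ± 0.0687 (adjusted p = 0.000454) and then by 3.23 (adjusted p = 7.34e-06). Ikzf1 did not pass at step 1 (-0.33, adjusted p = 0.215) and rose by 4.94 at step 2 (adjusted p = 5.25e-05), and Spi1, which encodes the myeloid factor PU.1, likewise had 0.26 (adjusted p = 0.363) and then 3.29 (adjusted p = 0.000216).

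Of the genes shared by blood cells, 43 of 44 rose and none fell at step 2, against 25.8% of all genes higher, with a median of 2.43. At step 1, 25 rose and 6 fell, against 18.7% higher and 33.6% lower, with a median of 0.38. The 10 stepwise up members were Cd44, Spn, Selplg, Evi2a, Fyb, Dock2, Arhgap30, Nckap1l, Myo1f and Myo1g. Cd44 (chromosome 2, 102651398 to 102651457), the hyaluronan receptor, had near-equal steps: -1.37 and -1.27, then 0.02 and 0.06, then 1.47 and 1.38. Spn, which encodes the sialoprotein CD43, read -3.78 and -3.83, then -1.85 and -1.94, then 1.34 and 1.26, with steps of 1.92 and 3.19. Myo1g, a myosin of blood cells, had a first step of 1.05 ± 0.0641 and a second of 3.69 ± 0.0641. Other probes of Selplg and Fyb gave smaller first steps of -0.18 and 0.46. Ptprc, which encodes the pan-leukocyte antigen CD45, stayed outside the class with a rise of 0.88 (adjusted p = 0.00588) at step 1 and of 2.77 (adjusted p = 0.000124) at step 2.

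Of the macrophage and myeloid list, 31 of 37 genes rose and none fell at step 1, against 18.7% of all genes higher, and 35 rose and 1 fell, Pla2g7 (-0.93), at step 2, against 25.8%. The list medians were 1.14 and 1.61. The 20 stepwise up members included all 3 chains of the complement protein C1q, both lysozyme genes, receptors of macrophages (Adgre1, Cx3cr1, Trem2, Timd4, Clec7a, Fcgr1), the adaptor Tyrobp and the transcription factor Spic. C1qc (chromosome 4, 136445766 to 136445825) read -2.28 and -2.32, then -0.95 on both arrays, then 1.29 and 1.2, steps of 1.35 ± 0.0487 and 2.2 ± 0.0487. Tyrobp, the signalling partner of several myeloid receptors, read -1.9 and -1.75, then -0.01 and 0.17, then 2.08 and 2.1. Cx3cr1, the receptor of fractalkine, read -1.89 and -1.66, then -0.46 and -0.42, then 1.61 on both; its other probe gave a smaller first step of 0.18 and a second of 2.26. Adgre1, which encodes the F4/80 antigen, read -3.4 and -3.28, then -1.72 and -1.42, then 0 and 0.04, and its other probe had steps of 1.2 and 1.44. Ctss, the lysosomal protease cathepsin S, read -2.52 and -2.35, then -1 and -0.95, then 0.33 and 0.47, and Mpeg1, which encodes perforin-2, -3.28 and -3.14, then -1.74 and -1.6, then -0.39 and -0.37. These 2 genes had steps of similar size. Lyz1 (steps 1.22 and 2.37) and Lyz2 (1.55 and 2.38, its start not well above background) are near-identical copies whose signals cannot be told apart with certainty. Wfdc17 was not well above background in GFP- endothelial cells and on 1 of the 2 GFP+ endothelial arrays; it was at least 1.58-fold higher at step 1 and 11.9-fold higher at step 2.

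Summed over the 37 genes on the linear scale, on which 1 is an array's 75th percentile, the macrophage level was 27.6 and 27 on the GFP- endothelial arrays, 43.5 and 45.4 on the GFP+ endothelial arrays and 90.7 and 91.8 on the GFP+ cluster arrays, and 37.9 and 39.1 in GFP- cluster cells. Well above background on both arrays were 28 of the 37 genes in GFP- endothelial, 32 in GFP+ endothelial and 37 in GFP+ cluster cells. Csf1r, which encodes the receptor that defines the lineage, just missed the class with rises of 0.98 (adjusted p = 0.000478) and 1.8 (adjusted p = 5.94e-05), at mean levels of 0.53, 1.51 and 3.31. The integrin gene Itgam passed at neither step (0.09, adjusted p = 0.667, and -0.11, adjusted p = 0.624), Marco gave -0.03 (adjusted p = 0.945) at step 1, and Cd68 was low throughout, at -5.71, -4.93 and -3.39. The summed macrophage level was thus higher at each stage of the order, as the stepwise up genes are by the rule, and its part in the result was not tested. Without the macrophage list the class holds 103 genes, and without the macrophage and blood cell lists 93.

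Some of these 93 are described here after their values were seen. Of 20 chemokine genes tested, 5 (Ccl3, Ccl6, Ccl7, Ccl9 and Ccl24) were stepwise up, against 0.643% of all genes. At step 1, 13 of the 20 rose and 6 fell, against 18.7% of all genes higher and 33.6% lower. At step 2, 12 rose and 4 fell, against 25.8% and 24.9%. The share that fell was near that of all genes at each step. Ccl9 had steps of 1.12 ± 0.0657 and 3.87 ± 0.0657. The interferon-inducible members were Ifi204, Ifi202b, Ifi203, Psmb9 and Oas2; Ifi204 read -3.99 and -4.11, then -2.41 and -2.48, then -0.63 and -0.69. Lgals9, which encodes galectin-9, read -3.56 and -3.7, then -1.5 and -1.54, then 0.4 and 0.38. Plcg2, the phospholipase of immune receptors, read 0.86 on both arrays, then 2.49 on both, then 3.99 and 4.1. Alox5ap, which helps to make leukotrienes, read -0.46 and -0.45, then 0.93 and 0.95, then 2.74 and 2.69. Dok2, an adaptor of tyrosine kinases in blood cells, read -0.18 and -0.12, then 1.14 and 1.19, then 3.5 and 3.65. The groups of Lgals9, Plcg2, Alox5ap and Dok2 lay apart without overlap. S100a4, a calcium-binding protein gene, had the larger step first, with 2.41 ± 0.0454 and 1.06 ± 0.0454. Stat4, a transducer of cytokine signals, had steps of 1.58 ± 0.0583 and 1.65 ± 0.0583, and Il6ra, a receptor chain for interleukin 6, of 1.31 ± 0.0999 and 2.31 ± 0.0999. By the smaller of their 2 steps the leading members were Apobr (2.5) and Slc7a8 (2.37), ahead of Mctp1, Gfi1, Cd86, Spn, Lgals9, Tyrobp, Rassf5 and Slc11a1. In Apobr, Slc7a8, Mctp1, Cd86 and Rassf5 the GFP- endothelial level was not well above background, so their first steps are bounds of at least 1.78-fold, 2.95-fold, 1.61-fold, 3.18-fold and 2.4-fold. Some members rest on arrays that disagree: Cd300lf read -4.66 and -2.55 in GFP+ endothelial cells, and Coro2a -3.21 and -6.33.

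Of the interferon response list, 51 of 64 genes rose and 2 fell at step 1 (median 0.71), where 18.7% of all genes were higher and 33.6% lower. At step 2, 30 rose and 13 fell (median 0.27), where 25.8% of all genes were higher and 24.9% lower. Its 4 stepwise up members were accompanied by genes that rose at step 1 alone, such as Gbp4, a guanylate-binding protein gene, with 1.82 ± 0.065 (limma, adjusted p = 6.3e-05) and then -0.64, and H2-D1, a class I histocompatibility gene, with 1.41 ± 0.0806 (adjusted p = 0.000216) and then -0.44.

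The sequence before the start site of a few members is shown to give examples of the motifs counted in the windows around RefSeq start sites. Each line gives the 250 bases before the RefSeq start on assembly GRCm38.p6, 5′ to 3′ on the gene's strand, with motif matches in capitals. C1qc (chr4:136892915-136893164, minus strand) and Wfdc17 (chr11:83703806-83704055, plus strand) hold the letters TGTGGT, a core bound by RUNX proteins, and GAGGAAG, of the kind bound by PU.1, here read on the opposite strand as CTTCCTC. Lgals9 (chr11:78984925-78985174, minus strand) holds GAGGAAG and, on the opposite strand, the ISRE-like motif (GAAA, any 2 bases, GAAA), the kind of repeat found in interferon-response elements. Gja5 (chr3:97032152-97032401, plus strand), a peak gene, holds GAGGAAG.
C1qc: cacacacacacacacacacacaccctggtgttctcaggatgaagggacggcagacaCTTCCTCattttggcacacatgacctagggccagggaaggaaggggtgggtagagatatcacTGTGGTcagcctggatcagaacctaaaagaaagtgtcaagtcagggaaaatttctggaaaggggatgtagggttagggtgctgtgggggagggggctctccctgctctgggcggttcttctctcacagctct
Wfdc17: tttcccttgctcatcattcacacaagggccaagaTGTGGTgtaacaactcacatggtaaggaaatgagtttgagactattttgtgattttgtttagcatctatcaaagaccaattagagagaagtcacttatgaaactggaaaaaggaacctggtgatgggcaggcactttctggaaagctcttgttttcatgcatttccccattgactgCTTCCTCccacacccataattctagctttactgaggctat
Lgals9: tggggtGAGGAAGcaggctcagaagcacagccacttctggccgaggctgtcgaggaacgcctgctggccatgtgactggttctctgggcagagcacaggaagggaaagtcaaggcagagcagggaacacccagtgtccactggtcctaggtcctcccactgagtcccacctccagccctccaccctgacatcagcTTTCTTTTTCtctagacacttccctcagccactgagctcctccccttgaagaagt
Gja5: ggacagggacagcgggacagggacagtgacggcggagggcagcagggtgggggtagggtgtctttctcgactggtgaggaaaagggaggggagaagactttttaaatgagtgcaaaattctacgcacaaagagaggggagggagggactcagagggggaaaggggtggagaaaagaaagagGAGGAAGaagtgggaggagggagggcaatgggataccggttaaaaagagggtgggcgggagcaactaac
Motifs were searched on both strands in windows of 250 bases before to 50 after the start, some genes having several. TGTGGT was in 27 of 105 windows of stepwise up genes (25.7%), in 10% of 100 peak and 20.6% of 311 trough windows and in 16.8% of all 32851 windows. GAGGAAG was in 29 of 105 (27.6%), 10%, 16.7% and 13.6%, and the ISRE-like motif in 8 of 105 (7.62%), 7%, 2.57% and 3.44%. CCGGAAG, of the kind bound by other ETS proteins, was in 3.81% of stepwise up and 8.86% of all windows, AGATAA, read by GATA factors, in 8.57% and 11.2%, and the E-box CAGATG in 21% and 17.2%. GAGGAAG and CCGGAAG both end in GGAAG but differ in the bases before it, so a single site cannot match both. A match is a description of the letters, and of the 123 stepwise up members 84 have a window in the table.

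The peak class held 13 of 41 arterial and Notch genes and 4 of 42 matrix and adhesion genes, against 0.717% of all genes, while the blood cell and macrophage lists gave none. As these lists too were chosen with earlier results of these data known, their shares are a description and no independent support. Step 1 ran from 1.01 to 4.58 (median 1.69) and step 2 from -4.8 to -1 (median -1.36) over the 137 members. In 125 of them both GFP+ endothelial arrays lay above all arrays of the other 2 groups, which the choice by steps on the same arrays favours.

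Gja5 and Gja4 encode the gap junction proteins connexin 40 and connexin 37 of arteries. Gja5 (chromosome 3, 96857349 to 96857408) read 1.93 and 2.06 in GFP- endothelial cells, 4.15 and 4.19 in GFP+ endothelial cells and 2.59 and 2.55 in GFP+ cluster cells, so cluster cells stayed above GFP- endothelial cells. Its other probe had the same signs with steps of 0.62 and -0.36. Gja4 read 2.69 and 2.64, then 3.85 and 3.95, then 2.36 and 2.45. Of the Notch pathway, the ligand gene Jag1 had mean levels of 0, 1.11 and -0.16, and the target gene Hey2, a transcriptional repressor, of -4.69, -2.76 and -4.55, the last well above background on 1 of 2 arrays. The kinase gene Bmx read -0.99 and -1.02, then 0.77 and 0.87, then -0.22 and -0.18. Sema3g, a secreted guidance protein of arteries, read 2 and 1.95, then 3.14 and 3.07, then 1.76 and 1.64. The other Sema3g probe had steps of 0.29 and -1.56, under the limit at step 1. Cytl1, a small secreted protein gene, read -4.36 and -4.37, then -1.3 and -1.37, then -2.4 and -2.41, and so kept a large part of its step 1 difference. Not every arterial gene peaked. Over the 41 genes, 23 rose and 8 fell at step 1 (median 0.39), against 18.7% and 33.6% of all genes, and at step 2 37 fell and 2 rose (median -0.98), against 24.9% and 25.8%. Efnb2, the arterial ephrin, rose by 0.41 ± 0.0561 (limma, adjusted p = 0.00256), Dll4, a Notch ligand, by 0.37 ± 0.0826 (adjusted p = 0.0126) and Notch4 by 0.39 ± 0.0422 (adjusted p = 0.00117), while Hes5 fell by 1.04 ± 0.115 (adjusted p = 0.00124). Notch1 fell by 0.34 at step 1 (adjusted p = 0.00865), but the mean of its probes gave 0.15.

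Several peak genes encode extracellular proteins, and Fbln5, Fbln2, Ltbp4 and Htra1 among them are also counted in the arterial list. The elastic fibre genes Fbln5 (-2.95 and -3.29, then -0.9 and -0.97, then -2.62 and -2.57), Fbln2 (steps 1.9 and -1.35), Ltbp4 (2.05 and -1.43), Fbn1 (2.05 and -1.34) and Mfap5 (2.77 and -1.53) peaked, as did the laminin genes Lamc3 and Lamb3, Lamb3 not well above background in cluster cells. The secreted protease gene Htra1 read -0.46 and -0.47, then 2.42 and 2.46, then 0.53 and 0.55. Vwf, the clotting factor of endothelial cells, read 3.37 and 3.49, then 5.63 and 5.76, then 4.31 and 4.57, and its GFP+ cluster arrays stayed above both GFP- endothelial arrays. Over the 42 matrix and adhesion genes 17 rose and 10 fell at step 1, against 18.7% and 33.6% of all genes, and 2 rose and 33 fell at step 2, against 25.8% and 24.9%.

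Signalling genes among the peak members included the endothelin receptor Ednrb (0.07 and 0.16, then 2.14 and 2.16, then 0.94 and 0.97), the hedgehog ligand Dhh (steps 1.41 and -1.28), the oncostatin M receptor Osmr (1.61 and -1.43), the ligand gene Wnt11 (1.08 and -1.27), the natriuretic peptide receptor Npr3 (1.04 and -1.65) and Cyp26a1, an enzyme that degrades retinoic acid (1.69 and -1.77). Ass1, an enzyme of arginine synthesis, read 0.47 and 0.51, then 2.2 and 2.23, then 1.11 and 1.2. The other probe of Ednrb had steps of 1.44 and -0.49, under the limit at step 2, and that of Ass1 of 1.79 and -1.08. By the smaller step Gcg, which encodes proglucagon, led the class. It read -4.22 and -4.1 in GFP- endothelial cells and -1.15 and -1.19 in GFP+ endothelial cells and was not well above background in GFP+ cluster cells, where GFP+ endothelial cells exceeded it at least 11.5-fold. The next leaders were Kcnh1, Arsj, Mal, Spaca3, Tmem100, Pde3a, Cltrn, Baalc and Htra1. Of the 3 groups, Kcnh1, Arsj, Spaca3, Cltrn and Baalc were well above background only in GFP+ endothelial cells; there they exceeded GFP+ cluster cells at least 1.99-fold, 1.73-fold, 3.09-fold, 1.05-fold and 1.34-fold.

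Part of the peak class rests on a single array. In 33 of the 137 members the 2 GFP+ endothelial arrays differed by more than 1 log2, and in all 33 the second was the higher; over all genes 1.75% differed so. Kcnh1 read -4.45 and -2.94 on them, Baalc -5.29 and -3.24, Eps8l1 -5.24 and -2.97, and the olfactory receptor gene Olfr1175 -5.88 and -2.69. Without the first GFP+ endothelial array the class grows to 228 genes, without the second it falls to 120. The 2 arrays of Gja5, Gja4, Jag1, Bmx and Sema3g lay close together.

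Only 11 genes were lower by 1 log2 at each step, and 7 of them have a symbol. Tnfrsf11b, which encodes osteoprotegerin, a decoy receptor of the bone-resorbing cytokine RANKL, read -2.71 and -2.57, then -4.37 and -4.2, then -6.52 and -6.83, the last not well above background and at least 1.33-fold lower. Foxf2, a forkhead transcription factor of mesenchyme and of pericytes, read -2.53 and -2.47, then -4.08 and -4.14, then -6.09 and -5.71, also not well above background in cluster cells. Vwa1, a matrix protein gene, read -0.49 and -0.51, then -1.88 and -1.85, then -3.52 and -3.24. Fzd10, a Wnt receptor, read 2.27 and 2.29, then 1.15 and 1.24, then 0.17 and 0.08. Ssu2, Rhbg, an ammonia transporter, and Syt10, a synaptotagmin, were the rest, with first steps of -1.09, -1.09 and -1.04 and standard errors of 0.264, 0.265 and 0.246. Only 3 of the 11 were well above background throughout, and in 7 the GFP+ cluster level was a bound. No member belonged to a gene list. Of 36 mesenchyme and smooth muscle genes 19 fell at step 1, against 33.6% of all genes lower, and 27 at step 2, against 24.9%.

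The trough class was the largest and the least well measured. In 247 of its 536 members neither array of the middle group was well above background, and in 178 only 1 of them was. Only 50.6% of members carry a gene symbol, against 71.5% of all genes tested. Step 1 ran from -3.86 to -1 (median -1.4) and step 2 from 1 to 5.42 (median 1.54). In 533 members both GFP+ endothelial arrays lay below all arrays of the other 2 groups, which the choice by steps on the same arrays favours. Among the leading genes by the smaller step were Prg2, the major basic protein of eosinophil granules, Fgf14, S100g, Krtap19-4, Spint2, Olfr1348, Nrg4, Cyp17a1 and Spata20. Prg2 read -3.93 and -4.45, then -8.3 and -7.21, then -3.57 and -3.31, so the middle group was at least 2.68-fold below the first and at least 4.51-fold below the third. Cyp17a1, an enzyme of steroid synthesis, read 0.67 and 0.47, then -1.47 and -1.75, then 0.74 and 0.26, all well above background. Spint2, a protease inhibitor gene, had steps of -2.49 ± 0.272 and 2.42 ± 0.272, but 0.68 and 0.73 with its other probe. Krtap19-4 read 0.05 and -0.53, then -2.45 and -3.3, then 0.2 and -0.12.

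Few genes of the lists were in the trough class, 11 in all, of which 3 were erythroid, the most from 1 list. Car2, the carbonic anhydrase of red cells, read 1.67 and 1.68, then 0.24 and 0.2, then 1.9 and 1.82. Gata1, the erythroid transcription factor, read -0.08 and -0.13, then -1.58 and -1.68, then -0.54 and -0.58, and Tfr2, a transferrin receptor, had steps of -1.33 and 2.03. Gfi1b, the paralog of Gfi1 in erythroid cells and platelets, read -1.31 and -1.34, then -2.25 and -2.43, then 1.06 and 0.98. Gfi1 and Gfi1b thus went opposite ways at step 1 and the same way at step 2. Rgs18, of platelets, had steps of -1.11 and 2.33. Apob, the apolipoprotein of liver and yolk sac, read -4.13 and -3.77, then -5.12 and -5.03, then -2.83 and -2.72. Apob left the class under quantile normalization, the authors' table and normexp, and Gfi1b under quantile normalization and normexp. In each case only the rise at step 2 reached the limit. Nog, an inhibitor of bone morphogenetic proteins, had steps of -1.81 ± 0.358 and 1.44 ± 0.358. Of the erythroid list 37 of 44 genes fell and 1 rose at step 1 (median -1.34), against 33.6% of all genes lower and 18.7% higher. At step 2, 12 rose and 11 fell (median 0), shares near the 25.8% and 24.9% of all genes. Their summed level was 1070 and 1080 in GFP- endothelial cells, 352 and 369 in GFP+ endothelial cells, 372 and 370 in GFP+ cluster cells and 1420 and 1470 in GFP- cluster cells. The erythroid sum was thus lower in both GFP+ populations than in both GFP- populations, and its part in the trough class was not tested.

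Many other trough genes belonged to no list. The 18S ribosomal RNA probe Rn18s read 5.31 and 5.37, then 3.12 and 2.99, then 7.06 and 5.95. Of 54 histone genes 6 were in the class (11.1%), and of 108 chemoreceptor genes 21 (19.4%), against 2.69% of the remaining genes tested. The linker histone H1f5, a member, read 4.16 and 4, then 2.19 and 2.24, then 3.52 and 3.38. These 2 families were picked after their values were seen. A gene was tested if well above background in only 1 group, so a mostly dim gene enters through a group where it is high. The family shares are therefore a description and no support for the class. Suv39h1, a histone methyltransferase gene, read 0.95 and 0.87, then -0.19 and -0.27, then 0.99 and 0.96. Trough probes were richer in G and C, with a median of 48.3% against 43.3% over all genes tested and 40% in both the stepwise up and the peak class. Among genes measured in all 3 groups the share in the trough class was 0.289% for probes of up to 40% G and C, 0.726% up to 50% and 1.36% up to 60%, and above 60% it was 9 of 86 genes. The part of probe composition and of dim signal in the class was not tested.

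**Figure D3:**
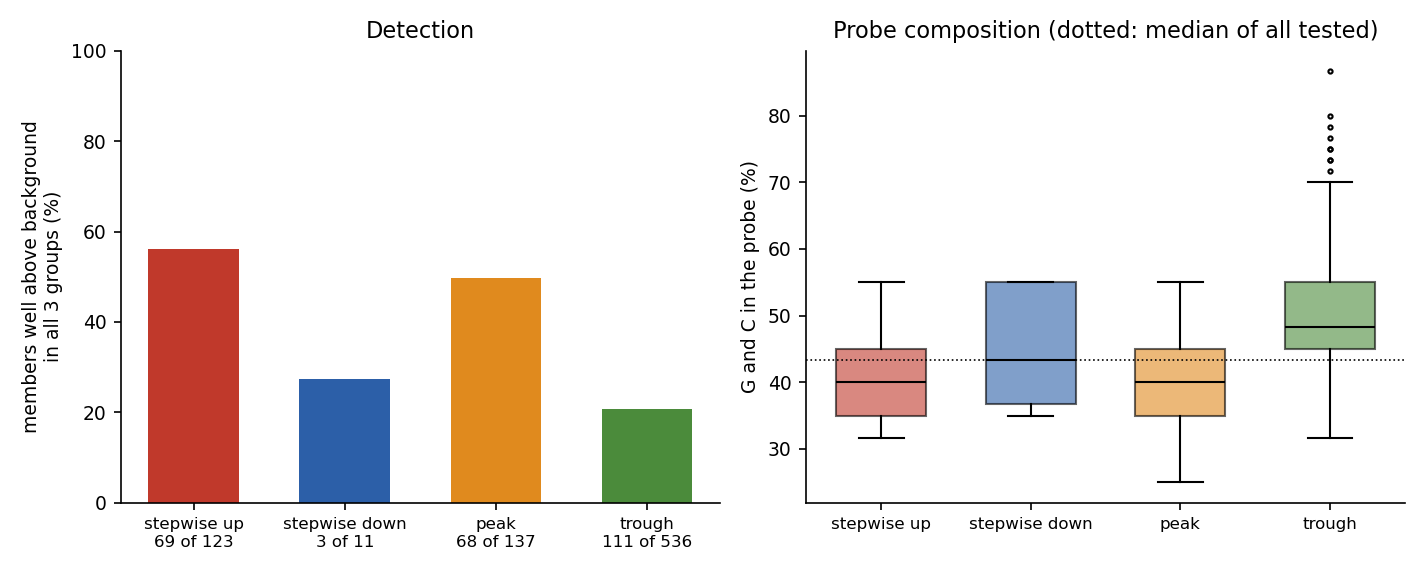
Left, the percent of members of each class that were well above background on both arrays of all 3 groups, with the counts under the bars; right, G and C percent of the members' probes as boxes (median and quartiles, whiskers to 1.5 times the interquartile range), with the median of all tested genes dotted. The trough class has the lowest detection, 111 of 536, and the highest median G and C, 48.3%.

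At the 1 log2 limit the classes have no gap. Selplg (steps 1.01 and 2.58) and Il18 (1 and 1.84) were just inside stepwise up, and Dram1 (1.21 and 0.99) and Fcgr3 (0.98 and 1.91) just outside. Fzd10 (-1.08 and -1.07) and Syt10 (-1.04 and -1.24) were the stepwise down members nearest to it, with Thbs4 (-0.98 and -1.2) and Tmod2 (-0.97 and -1.5) outside. For the peak, Scin (1.94 and -1) lay inside and Fam189a2 (0.99 and -1.15) and Smtnl1 (2.16 and -0.98) outside. Grip2 (-1.01 and 1.02) and Mobp (-1 and 1.22) were inside the trough limit, Zc3h12b (-1 and 1.1) and Trav9n-3 (-1.02 and 1) outside by less than the rounding. With a limit of 1.5-fold in place of 2-fold the classes hold 260, 137, 457 and 1419 genes.

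The class sizes depended on the background correction. Under normexp with an offset of 50, which shrinks differences between dim signals, 21 genes were stepwise up, 1 stepwise down, 37 peak and 40 trough. Nearly every member that this setting could measure kept the signs of both steps: 111 of 112 stepwise up, 10 of 10 stepwise down, 95 of 96 peak and 502 of 503 trough members. Quantile normalization gave 134, 21, 198 and 197 genes and the normalized values of the authors 130, 17, 192 and 205, so the trough class was smaller in both and the stepwise down class larger. In every one of these 3 scalings 21 stepwise up, 1 stepwise down (Fzd10), 37 peak and 38 trough members kept their class. The 21 stepwise up genes were Gfi1, Cd44, Spn, C1qc, Ctss, Cx3cr1, Lilrb4a, Mpeg1, Cd300c2, Alox5ap, Dok2, Ifi202b, Lgals3, Lgals9, Nupr1, Plcg2, Ptpre, S100a4, Stat4 and 2 without a standard symbol. Of the 13 arterial peak genes 8 were among the 37: Gja5, Gja4, Jag1, Sema3g, Fbln2, Fbln5, Ltbp4 and Htra1, with Vwf and Gcg beside them; 11 of the 13 had a value there, and Tmem100 had none. Car2 was the only erythroid trough gene that stayed.

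The classes were also chosen by the steps on one slide and read on the other. The filter on dim genes and the choice of the brightest probe used both slides, so the second reading is not independent. Of 134 stepwise up genes chosen on the first slide 93 (69.4%) were stepwise up on the second, where 0.56% of all genes were. Of 107 chosen on the second 93 (86.9%) were so on the first, against 0.701% of all genes. For the peak class the shares were 71.3% (87 of 122) and 38.7% (87 of 225), against 1.18% and 0.638%. The trough class had 59.3% (315 of 531) and 52.3% (315 of 602), against 3.15% and 2.78%. Stepwise down had 4 of 11 and 4 of 16, against 0.0837% and 0.0575%. Signs alone held more often: 130 of the 134 and 107 of the 107 stepwise up genes kept both, against 115 of 122 and 147 of 225 peak genes. The slides carry fractions of the same RNA, so these shares describe the measurement and not the biology of other embryos. Second probes were counted only where well above background on both arrays of each group in which the class is high. Such a probe was present for 10 stepwise up, 17 peak and 13 trough genes. It had the same signs at both steps in 8, 14 and 9 of them and passed the limit in 5, 3 and 4. Dimmer second probes were left out, so these counts do not cover all second probes of the members.

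GFP- cluster cells, which the order leaves out, lay near the middle of the stepwise up genes. In 114 of 123 their mean level was nearest to that of GFP+ endothelial cells; the median difference was -0.02 from that group, 1.42 from GFP- endothelial cells and -1.99 from GFP+ cluster cells. Gfi1, with -0.05 and 0.01, Hlf, with -1.47 and -1.52, and C1qc, with -0.8 and -0.83, lay between the ends of the order. Of the peak genes 91 of 137 were nearest to GFP- endothelial cells, and 80 lay below all 3 groups of the order. Gja5 read 0.56 and 0.55 there and Tmem100 -3.37 and -3.42, lower than in any group of the order. The median peak gene was at -1.84 against GFP+ endothelial cells. For the 122 genes chosen by their steps on the first slide this median was -2.03, and for the 225 chosen on the second -0.7. Gcg, at -1.66 and -1.61, went against the class by remaining high. Trough genes were nearest to GFP- endothelial cells in 282 and to GFP+ cluster cells in 249 of 536, with a median of 1.43 above GFP+ endothelial cells. Of the stepwise up genes chosen by their steps on the first slide 115 of 134 were nearest to the middle group. For the second slide this held in 95 of 107.

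**Figure D4:**
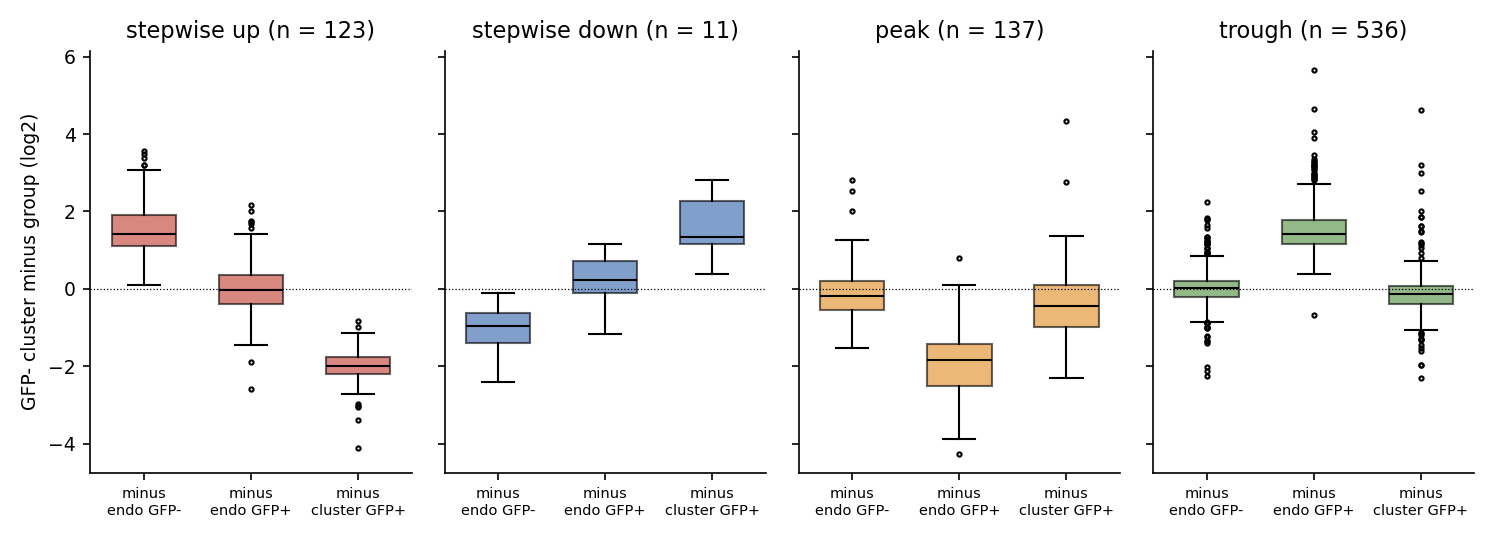
Level of class members in GFP- cluster cells minus their mean level in each of the 3 ordered groups (log2); boxes give median and quartiles over members, whiskers reach 1.5 times the interquartile range and points lie beyond. Stepwise up genes centre on -0.02 against GFP+ endothelial cells and on -1.99 against GFP+ cluster cells.

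Summed levels of the gene lists took different courses. The arterial sum was 116 on both GFP- endothelial arrays, 193 and 192 on the GFP+ endothelial arrays and 91.3 and 89.5 in GFP+ cluster cells. Blood cell genes summed to 50.8 on both, then 48.2 and 47.8, then 129 and 127, so this sum did not increase at step 1 although 25 of its 44 genes rose. The interferon sum was 63.4 and 64.8, then 81.7 and 84.8, then 97 and 91.8. The directions of the medians of the macrophage, blood cell, arterial, interferon and erythroid lists at step 1, and of all but the erythroid at step 2, were kept under normexp, quantile normalization and the authors' table. Ribosomal protein genes, in contrast, fell in 35 of 45 cases at step 1 (median -0.37), but in 6 with quantile normalization (median -0.01), so no direction is read from them.

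**Figure D5:**
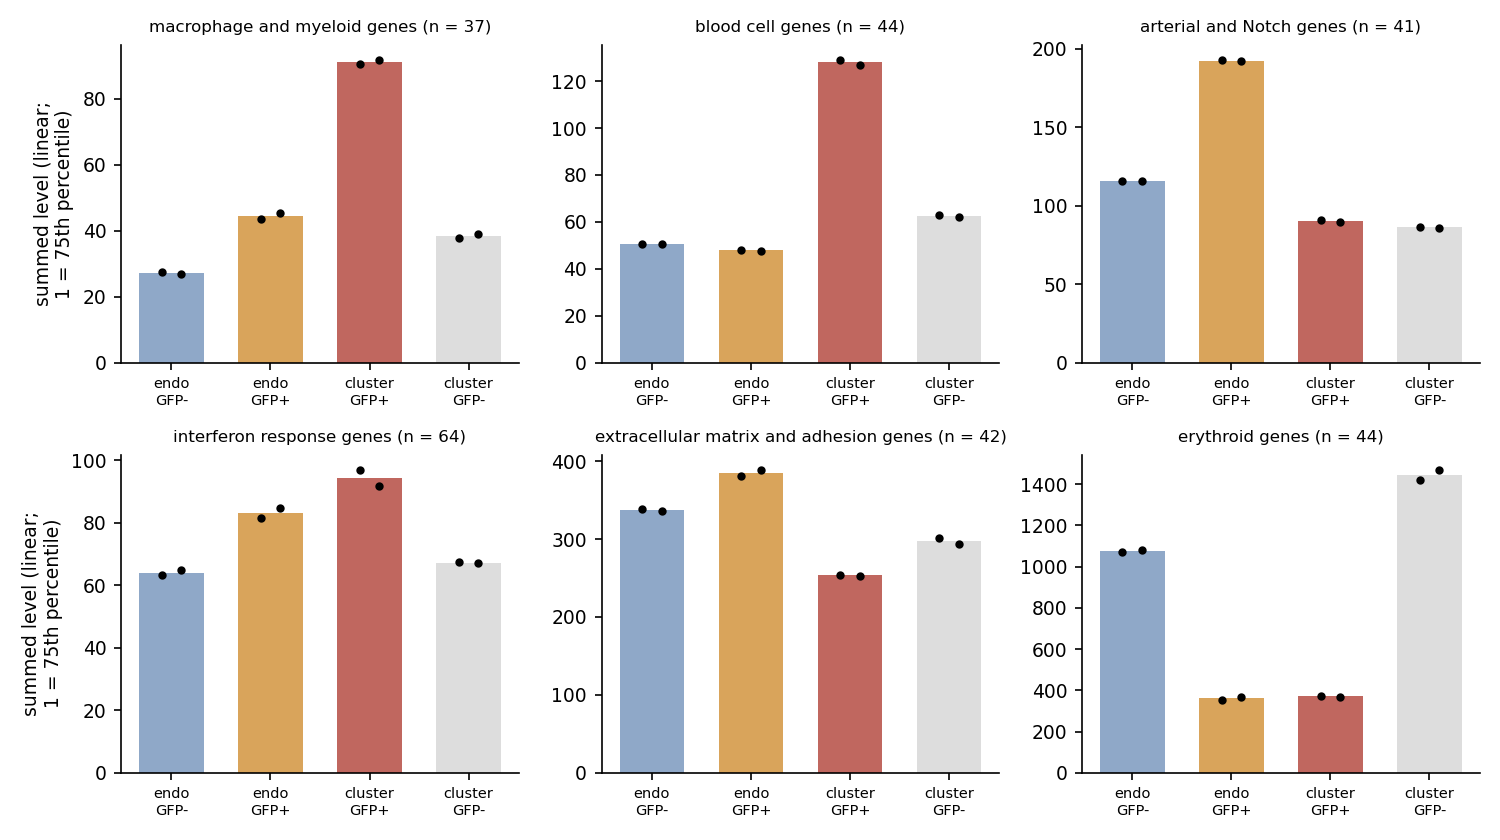
Summed level of 6 gene lists (linear scale, 1 is an array's 75th percentile) in the 3 ordered groups and, in grey, in GFP- cluster cells; bars are the means of 2 arrays and points the arrays. The macrophage sum goes from about 27 to about 91 along the order, and the arterial sum is highest in GFP+ endothelial cells, at 193 and 192.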

How the data were processed

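Gene expression in 8 samples was measured on 1-colour Agilent arrays, scanned and quantified with Agilent Feature Extraction 10.10.1.1, per the submitters' processing notes. The deposited scanner files give a background-subtracted intensity per spot, per the file headers. The authors' deposited table of normalized intensities has columns of nearly equal distribution and, after taking log2, served as an alternative. Control spots and outlier flags were left out, spots of a probe averaged, the log2 intensity set relative to each array's 75th percentile, and the brightest of a gene's probes kept. A gene was tested if 1 or more of the 3 ordered groups had it well above background on each array (19117 of 31823 names). Names came from RefSeq accessions for 26055 probes, from current symbols for 3195 and from the file for 10179. Steps were fitted with limma 3.58.1 in R 4.3.3 over all 8 arrays in 4 group means, two-sided, with Benjamini-Hochberg adjustment at 0.05, and the sorting into classes was tested on simulated data. Where a gene was not well above background in a group, folds are bounds.

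Replicate numbers mark the slide. The differences between replicates correlated between groups at 0.147 to 0.354, so the numbers pair the arrays. Array position and group cannot be told apart. Members and lists were chosen with earlier results of these data known. The genes named are the markers, all members of a class with at most 12 named ones or else the 10 with the largest smaller step, class members on a list, the strongest called genes of each list and the neighbours of the limit; the others were named after their values were seen, and 3 genes that the rule names are not reported here. Alternatives were normexp with an offset of 50, quantile normalization, the authors' table, other filters and probe rules, the slide as a block, single slides, a 1.5-fold limit and each array left out; bounds in place of dim values were added after the data were seen.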

Additional observations from a re-analysis of the deposited data

How the results depend on the processing

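Normexp lowered the genes called to 6197 at step 1 and 6432 at step 2 and the classes to 21 stepwise up, 1 stepwise down, 37 peak and 40 trough genes. Quantile normalization gave 21 stepwise down and 197 trough genes, and the normalized values of the authors 17 and 205. Without the filter on dim genes the peak held 285 and the trough 2509, and with detection required in all 3 groups the classes held 69 stepwise up, 3 stepwise down, 68 peak and 111 trough genes. A limit of 1.5-fold gave 260, 137, 457 and 1419. Bounds in place of dim values, with or without the filter, gave 4 stepwise down and 91 peak genes. The second slide alone gave 225 peak genes. Leaving out each array in turn gave 7308 to 10018 calls at step 1 and 7409 to 9025 at step 2, 112 to 130 stepwise up, 9 to 14 stepwise down, 120 to 228 peak (228 without the first GFP+ endothelial array) and 482 to 659 trough genes. With the replicate block, in which the slide pairs the arrays, 11032 and 10598 genes were called, and no count moved by over 1.5 times. Of 552 steps of named genes 397 kept their direction and side of the threshold under every alternative, and 9 reversed under at least 1. With quantile normalization Cdh5 read 0 and Rps15 0.07 at step 1; in the authors' table Rps15 read 0.07 and Ptger2 0.02. With the mean of a gene's probes Ets1 read -0.09 and Notch1 0.15 at step 1, and Notch1 -0.31, Dcx 0.3, Pdpn 0.28 and Zeb2 -0.09 at step 2. The cause of these changes was not tested. Of the 536 trough genes 111 were well above background in all 3 groups, and the part of dim signal in the class was not tested.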
